A study of Mus musculus with 12 samples.

Results

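The transcripts of 10 genes that encode subunits of Polycomb repressive complex 1 (PRC1) were followed while the chromatin remodeler BRG1 was degraded in mouse embryonic stem (mES) cells. The genes, Bmi1, Pcgf1, Pcgf2, Pcgf6, Ring1, Rnf2, Cbx2, Cbx7, Rybp and Kdm2b, were taken by symbol, 10 of the 24421 in the counts table. They were listed with their levels over these doses already known, so their differences between doses are a description: calls are counted beside those of all genes and intervals give the precision, and neither is evidence about the list. All 10 were among the 11378 genes that averaged 1 RPKM or more over the 12 libraries, RPKM being read pairs per kb of exon, scaled to the size of the library.

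The cells were B6 mES cells in 2i+LIF medium whose Brg1 gene carries a dTag (FKBP12-F36V) knock-in, through which the small molecule dTAG13 sends BRG1 to the proteasome. The study's methods describe the knock-in line as grown from a picked colony, so every library shares that background. RNA was taken after 24 h in 0.3, 1, 3, 10 or 100 nM dTAG13 or in control medium (0 nM, vehicle DMSO in the methods), from 2 libraries per condition. The degradation acts on protein, and Smarca4, the gene of BRG1, stayed between 63.5 and 71.3 RPKM in the 12 libraries.

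PRC1 is a ubiquitin ligase that places the H2AK119 mark on histone H2A, and RING1A (Ring1) or RING1B (Rnf2) is its catalytic subunit. Each complex holds one PCGF paralog, which sets its type. Canonical PRC1 pairs PCGF2 or BMI1 with a CBX protein that reads H3K27 methylation and with a PHC protein. Variant PRC1 holds RYBP or YAF2 in place of CBX, and KDM2B brings the PCGF1 form to unmethylated CpG islands. In mES cells PRC1 represses developmental genes, and BRG1-containing mSWI/SNF is known as an opponent of Polycomb repression.

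Bmi1 and Pcgf2 encode the interchangeable PCGF subunits of canonical PRC1, and both promoters are shown because these paralogs parted over the doses. Each run is 300 bases of RefSeq sequence on GRCm38.p6, 250 before and 50 after an annotated start (for Pcgf2 a start inside the span of its counts-table entry), 5′ to 3′, with the E-box CACGTG in capitals. The motif reads the same on both strands. The Bmi1 window is chr2:18676768-18677067 on the plus strand, and the Pcgf2 window is chr11:97699599-97699898 on the minus strand.
Bmi1: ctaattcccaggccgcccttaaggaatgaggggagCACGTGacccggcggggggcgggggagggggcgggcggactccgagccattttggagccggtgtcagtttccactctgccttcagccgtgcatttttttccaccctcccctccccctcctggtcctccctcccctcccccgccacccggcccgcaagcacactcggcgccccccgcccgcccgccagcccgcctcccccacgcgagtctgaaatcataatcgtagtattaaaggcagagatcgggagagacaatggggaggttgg
Pcgf2: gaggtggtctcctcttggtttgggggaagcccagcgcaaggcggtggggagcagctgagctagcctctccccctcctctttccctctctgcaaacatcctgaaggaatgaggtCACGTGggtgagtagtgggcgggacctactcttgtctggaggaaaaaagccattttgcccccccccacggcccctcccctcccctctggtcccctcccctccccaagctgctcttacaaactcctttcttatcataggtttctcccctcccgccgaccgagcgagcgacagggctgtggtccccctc

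The E-box began at position -215 from the start in Bmi1 and at -137 in Pcgf2. Of 32851 such windows in RefSeq, 7.15% held the motif. A window was given for 7 of the 10 genes, and those of Pcgf6, Ring1, Rnf2, Cbx7 and Kdm2b had no match to it. The number of CG steps was 23 in the Bmi1 window and 10 in the Pcgf2 window, against a median of 7 over all windows. Ring1 had 37, Cbx7 33, Rnf2 30 and Pcgf6 22, and the 4 windows of Kdm2b had between 18 and 49. A match describes letters only. Pcgf1, Cbx2 and Rybp had no entry.

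Totals ran from 4663484 to 6375582 counted pairs per library, of which 10.5% to 19.4% fell on the ribosomal transcript Rn45s. In the library labels, 0, 1, 10 and 100 nM share a run of numbers. The numbers of 0.3 and 3 nM repeat some of these and are taken here as a second run. The labels do not say what the runs stand for. If the runs were handled apart, a difference of 0.3 or 3 nM from 0 nM cannot be told apart from a difference between runs. Steps within a run are therefore given as well. The study describes its data as from independent experiments and biological replicates. The labels do not say which cultures the 2 libraries of a condition came from. The 8 mES markers (Pou5f1, Sox2, Nanog, Zfp42, Esrrb, Klf4, Tfcp2l1 and Dppa5a) were all tested and summed to 2060 to 2081 RPKM at 0 nM and 1829 to 1872 at 100 nM. Of these, 1 was called lower at 100 nM (Tfcp2l1) and none higher, beside 6.83% and 4.37% of tested genes. The sum hides moves both ways. At an adjusted p under 0.05 in edgeR's quasi-likelihood test, whatever the fold change, 2 were higher and 4 lower at 100 nM. These stood beside 10.1% and 13.3% of tested genes. Nanog was among the higher (log2 fold change 0.52) and Pou5f1 among the lower (-0.17).

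Bmi1 rose with dose. It lies on mm10 chromosome 2 from 18677018 to 18686629 on the plus strand, with 3594 exonic bases in the counts table. The 0 nM libraries held 64 and 92 counts, which is 3.06 and 4.17 RPKM (3.61 ± 0.783, SD, n = 2). All 10 treated libraries lay above both of these. At 0.3 nM the libraries stood at 4.81 and 4.54 RPKM, and at 1 nM at 5.67 and 4.91. They reached 6.61 and 6.53 RPKM at 3 nM. The 10 nM libraries held 7.59 and 8.36 RPKM and those of 100 nM 8.43 and 7.10 (7.76 ± 0.944, SD, n = 2). The means thus rose from dose to dose up to 10 nM and flattened between the highest doses, where the libraries of 10 and 100 nM overlapped. Ordered by mean level, the conditions ran 0, 0.3, 1, 3, 100 and 10 nM, and the libraries of the other 4 of 5 neighbouring pairs were apart.

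As log2 fold changes against 0 nM, given with standard errors (SE), Bmi1 stood at 0.37 (SE 0.17) with 0.3 nM, 0.54 (SE 0.17) with 1 nM and 0.86 (SE 0.17) with 3 nM. It was 1.14 (SE 0.16) at 10 nM and 1.10 (SE 0.16) at 100 nM, a 2.14-fold increase with a 95% interval of 1.70 to 2.69. These contrasts share the 0 nM libraries. Within a run, 3 nM was above 0.3 nM by 0.49 (SE 0.16) and 10 nM above 1 nM by 0.59 (SE 0.15) on the log2 scale. Steps across the runs were smaller beside their SE: 1 nM was above 0.3 nM by 0.18 (SE 0.16) and 3 nM above 1 nM by 0.31 (SE 0.16). The difference of 100 nM from 10 nM, within a run, was -0.04 (SE 0.14). Leaving out 0 nM replicate 1 gave 0.90 at 100 nM and leaving out 0 nM replicate 2 gave 1.34.

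**Figure D1:**
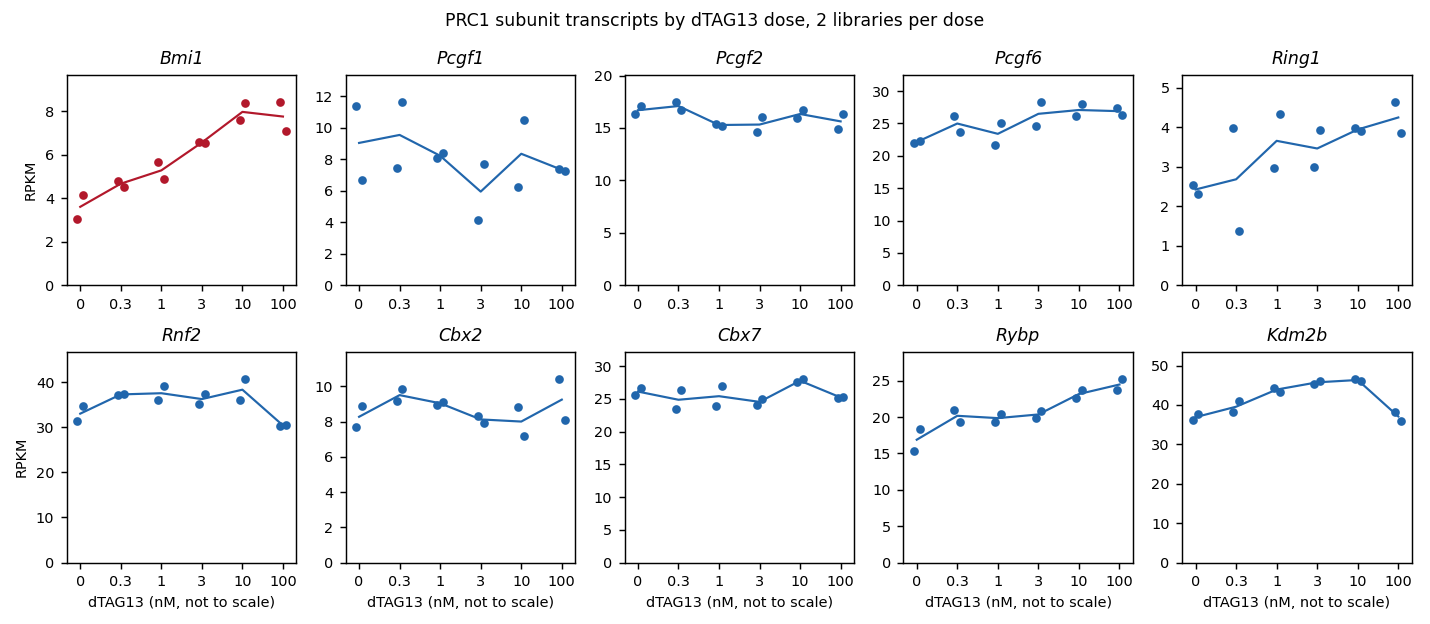
RPKM of the 10 PRC1 subunit genes (y axis, starting at 0) at each dTAG13 dose (x axis, nM, evenly spaced); points are single libraries, 2 per dose, and lines join the means. Bmi1 (red) climbs from 3.61 to 7.98 RPKM at 10 nM, whereas Pcgf2, Cbx2 and Cbx7 stay within a 1.19-fold range of means.

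A gene was called when edgeR's quasi-likelihood test gave a Benjamini-Hochberg adjusted p under 0.05 and the fold change was over 1.5. At 0.3 nM none of the 10 members was called, beside 0% of tested genes called higher and 0.0176% called lower. At 1 nM again 0 were called, beside 0.185% higher and 0.729% lower. The likelihood ratio test in edgeR and DESeq2's Wald test also called 0 at these 2 doses. At an unadjusted p under 0.05 in the quasi-likelihood test there were 3 and 4. All tested genes were not counted at that threshold, so these 2 counts have no background to be read against. At 3 nM 1 member was called higher and 0 lower, beside 1.52% and 2.38% of tested genes. The same counts at 10 nM stood beside 3.01% and 4.92%, and those of 100 nM beside 4.37% and 6.83%. The called member was Bmi1 at all 3 doses. Since the list was drawn up from these contrasts, the counts carry no weight beyond description.

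Without the fold-change minimum, Kdm2b alone passed at 1 nM, where 0.773% of tested genes were higher and 1.52% lower. Kdm2b and Bmi1 passed at 3 nM, beside 4.15% higher and 5.25% lower. Bmi1, Rybp and Kdm2b passed at 10 nM, beside 7.87% and 10.1%, and Bmi1 and Rybp at 100 nM, beside 10.1% and 13.3%. All of these members were higher than at 0 nM, and none passed as lower at any dose. The median log2 fold change of the 10 members over the 5 doses, from low to high, was 0.16, 0.16, 0.20, 0.25 and 0.08. The medians over all tested genes lay between -0.0014 and 0.0050. At 100 nM both libraries of 4 members (Bmi1, Pcgf6, Ring1 and Rybp) lay above both 0 nM libraries, beside 30.5% of tested genes, and those of 2 members (Rnf2 and Cbx7) lay below, beside 31.2%.

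The other PCGF members showed no matching decline. Pcgf2, the PCGF subunit that can take the place of BMI1 in canonical PRC1, lies on chromosome 11 from 97688823 to 97700497 on the minus strand. It stood at 16.3 and 17.1 RPKM at 0 nM and at 14.9 and 16.3 at 100 nM, and the groups overlapped. Its fold change at 100 nM was 0.936 with a 95% interval of 0.811 to 1.08, and its means stayed within a 1.12-fold range over all doses. Pcgf1, the subunit of the KDM2B complex (chromosome 6, 83078390 to 83080855, plus strand), was counted with only 18 to 58 pairs per library. It stood at 11.4 and 6.70 RPKM at 0 nM and at 7.39 and 7.29 at 100 nM, so the 100 nM libraries fell between those of 0 nM. The 95% interval of its fold change at 100 nM, 0.520 to 1.28, shows how little this depth resolves, and without 0 nM replicate 1 the log2 fold change turned from -0.29 to 0.13.

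Pcgf6 encodes the PCGF subunit of the PRC1 form that acts with MGA, MAX and L3MBTL2, and lies on chromosome 19 from 47033619 to 47050845 on the minus strand. Its 0 nM libraries stood at 21.9 and 22.3 RPKM. Those of 100 nM stood at 27.5 and 26.3 RPKM, above both, with a fold change of 1.21 (95% interval 1.05 to 1.41). Between 10 and 100 nM its log2 difference was -0.01 (SE 0.10), close to that of Bmi1 for the same step.

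The share of each paralog in the summed RPKM of its family does not depend on how libraries are scaled. The 6 PCGF genes together stood at 71.1 ± 0.771 RPKM at 0 nM and 81.1 ± 0.00542 at 100 nM (SD, n = 2 each). Bmi1 made up 4.27% and 5.91% of this sum in the 0 nM libraries and 10.4% and 8.75% in those of 100 nM. Over the 5 doses from low to high its mean share was 6.03%, 7.27%, 8.65%, 9.51% and 9.57%, so the share rose and then levelled as the level itself did. Pcgf2 made up 22.7% and 24.2% in the 0 nM libraries and 18.4% and 20.1% in those of 100 nM, without overlap, while its own level overlapped between these conditions. The share of Pcgf6 was 31.2% at 0 nM and 33.2% at 100 nM, and that of Pcgf3, the PCGF subunit of a variant complex, 23.1% and 24.7%. Pcgf1 and Pcgf5 made up 12.7% and 4.42% at 0 nM and 9.05% and 4.24% at 100 nM.

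Set against each other directly, the RPKM ratio of Bmi1 to Pcgf2 was 0.188 and 0.244 in the 0 nM libraries. It was 0.275 and 0.272 with 0.3 nM, 0.369 and 0.323 with 1 nM, and 0.453 and 0.407 with 3 nM. The 10 nM libraries gave 0.477 and 0.499, and those of 100 nM 0.564 and 0.435. No library of one dose overlapped with the next up to 10 nM. Pcgf2 nonetheless remained the more abundant transcript per length in each of the 12 libraries.

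**Figure D2:**
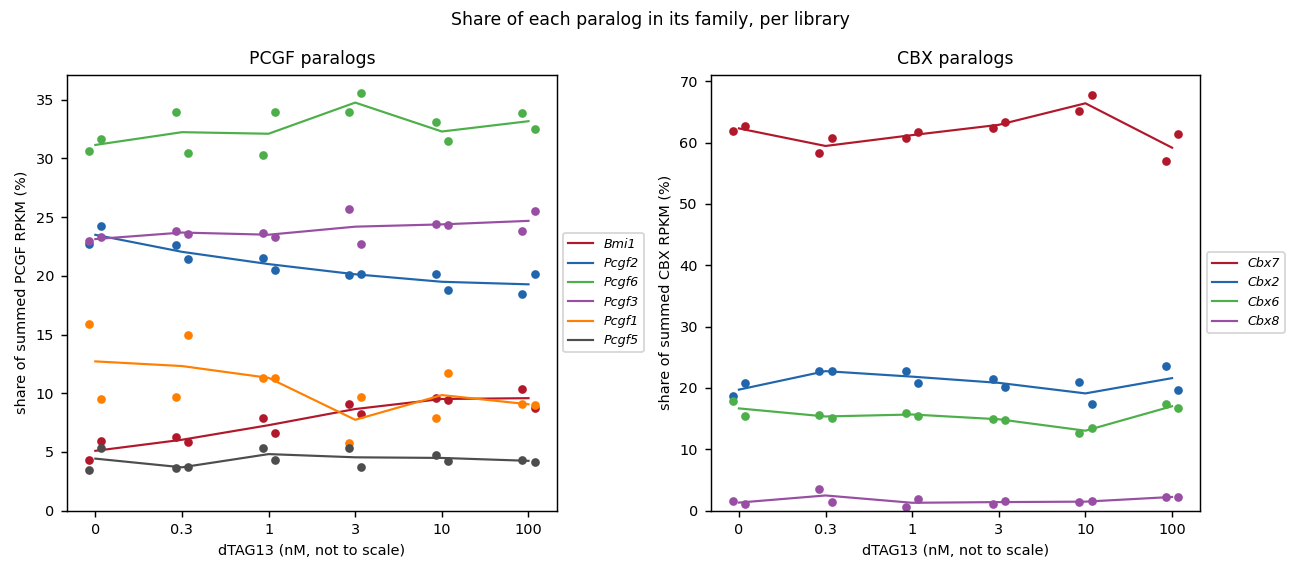
Share of each PCGF paralog (left) and each CBX paralog (right) in the summed RPKM of its family (y axis, percent) at each dTAG13 dose (x axis, nM, evenly spaced); points are single libraries and lines join the means of 2. The Bmi1 share climbs from 5.09% to 9.57% while that of Pcgf2 declines from 23.5% to 19.3%, and the order of Cbx7, Cbx2, Cbx6 and Cbx8 by mean share is the same at each dose.

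The CBX members were near their 0 nM levels at 100 nM. Cbx7, which encodes the main CBX reader of canonical PRC1 in mES cells, lies on chromosome 15 from 79915807 to 79932646 on the minus strand. It stood at 25.5 and 26.7 RPKM at 0 nM and at 25.2 and 25.3 at 100 nM, a fold change of 0.965 (95% interval 0.851 to 1.10). Cbx2, a paralog known for compacting chromatin, lies on chromosome 11 from 119023029 to 119031270 on the plus strand. It stood at 7.67 and 8.88 RPKM at 0 nM and at 10.4 and 8.09 at 100 nM, and the groups overlapped (fold change 1.12, 95% interval 0.922 to 1.35). Without 100 nM replicate 1 its log2 fold change was -0.03 and without replicate 2 it was 0.33. The means ranged over 1.13-fold for Cbx7 and 1.19-fold for Cbx2 across the 6 conditions.

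As shares of the summed RPKM of Cbx2, Cbx6, Cbx7 and Cbx8, Cbx7 made up 62.3 ± 0.491% at 0 nM and 59.2 ± 3.11% at 100 nM (SD, n = 2 each). Cbx2 made up 19.7 ± 1.56% and 21.6 ± 2.75%. Cbx6 was at 16.66% and 17.01%, and Cbx8 was at 1.30% and 2.22%. At 10 nM the shares stood elsewhere: Cbx7 made up 65.1% and 67.8%, above both 0 nM libraries (61.98% and 62.7%), and Cbx6 12.6% and 13.4%, below both (17.9% and 15.4%). Cbx6 stood at 5.34 and 5.55 RPKM there, against 7.37 and 6.57 at 0 nM (log2 fold change -0.36, SE 0.12, adjusted p = 0.0324 in edgeR), and it was not called. At 100 nM its share again lay within the 0 nM range. The list was named for a swap between PCGF and between CBX paralogs. Between 0 and 100 nM the Bmi1 share was higher and the Pcgf2 share lower without overlap. The Cbx7 share was also lower without overlap, at 56.98% and 61.4%, after it had been higher at 10 nM, and the share of Cbx2 overlapped. By level, both 100 nM libraries lay above both 0 nM libraries for 30.5% of tested genes and below for 31.2%. Shares have no such count, so their separations are a description. The PCGF sum was 71.1 RPKM at 0 nM and 81.1 at 100 nM, and the level of Pcgf2 overlapped between these conditions.

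The transcripts of the catalytic subunits differed widely in level. Rnf2, which encodes RING1B, the main ligase in mES cells (chromosome 1, 151469406 to 151500823, minus strand), stood at 31.4 and 34.7 RPKM at 0 nM. Its libraries lay above both of these at each dose up to 10 nM, with 36.0 and 40.7 RPKM there, and at 100 nM it stood at 30.3 and 30.6, below both 0 nM libraries. The step from 10 to 100 nM was -0.33 on the log2 scale (SE 0.082), whereas the contrast of 100 nM with 0 nM was -0.12 (SE 0.083). Ring1, which encodes RING1A (chromosome 17, 34020792 to 34024680, minus strand), had few counts, from 16 to 57 per library. It stood at 2.53 and 2.32 RPKM at 0 nM and at 4.64 and 3.86 at 100 nM, without overlap. Its 0.3 nM libraries, with 46 and 16 counts, were further apart than any other pair and straddled those of 0 nM.

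The fold change of Ring1 at 100 nM was 1.75 with a 95% interval of 1.09 to 2.79. It was not called in the fit of all 12 libraries. It was called when either 0.3 nM library was left out, in the fit of the 8 libraries of 0, 1, 10 and 100 nM, in the pairwise fit, without the filter on low values and with the likelihood ratio test. Ring1 made up 6.87 ± 0.839% of the summed RPKM of the RING genes at 0 nM and 12.2 ± 1.47% at 100 nM (SD, n = 2 each).

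Rybp, a subunit that marks variant PRC1, rose at the higher doses. It lies on chromosome 6 from 100228565 to 100287358 on the minus strand. Its 0 nM libraries stood at 15.4 and 18.4 RPKM, and all 10 treated libraries were above both. They stood at 22.6 and 23.7 RPKM at 10 nM and at 23.8 and 25.2 at 100 nM. On the log2 scale it stood 0.26, 0.23 and 0.27 above 0 nM with 0.3, 1 and 3 nM, then 0.45 with 10 nM and 0.53 with 100 nM (SE 0.088 to 0.091). The fold change at 100 nM, 1.45 (95% interval 1.28 to 1.64), was just under the 1.5 that a call needed, and Rybp was called when 0 nM replicate 2 was left out. Its paralog Yaf2 stood at 2.82 and 4.35 RPKM at 0 nM and at 4.50 and 5.36 at 100 nM and was not called. Rybp made up 82.7% of the sum of both at 0 nM and 83.3% at 100 nM.

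Kdm2b, which encodes the CxxC-domain demethylase of the PCGF1 complex, followed another course. It lies on chromosome 5 from 122870675 to 122989099 on the minus strand and was the most deeply counted member, with 1133 to 1512 pairs per library. The 0 nM libraries stood at 36.2 and 37.6 RPKM. With 1 nM it stood at 44.4 and 43.4 RPKM, with 3 nM at 45.4 and 46.1, and with 10 nM at 46.5 and 46.1. At 100 nM it was back at 38.3 and 35.8 RPKM, overlapping with 0 nM. The log2 fold changes were 0.25, 0.31 and 0.33 at 1, 3 and 10 nM and 0.01 at 100 nM (SE 0.063), and the step from 10 to 100 nM was -0.32 (SE 0.062). The same step was -0.33 for Rnf2, whereas it was 0.08 for Rybp (SE 0.086), -0.04 for Bmi1 and -0.01 for Pcgf6.

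By likeness to Bmi1, taken as Pearson's r over the 6 condition means of log2(RPKM + 0.1), the members ranked Rybp (0.93), Pcgf6 (0.92) and Ring1 (0.89), then Kdm2b (0.47), Cbx7 (0.20), Rnf2 (0.01), Cbx2 (-0.16), Pcgf2 (-0.49) and Pcgf1 (-0.53). The 6 points share their libraries and scaling between genes, so these values describe shape only. Over all tested genes, the 5 most like Bmi1 were Wnk3 (0.997), a WNK-family kinase, Thumpd3 (0.995), Apaf1 (0.994), the scaffold of the apoptosome, Rarg (0.994), a retinoic acid receptor, and Ryr1 (0.994), a calcium release channel. Their log2 fold changes at 100 nM differed, from 0.19 for Thumpd3 to 1.07 for Wnk3, because r compares the shape of the course and not its size.

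The genes on either side of Bmi1 were also measured, and these were chosen by position. Commd3, a COMM-domain gene on the same strand (chromosome 2, 18672462 to 18676216), ends 802 bases before Bmi1 starts. Its 0 nM libraries stood at 17.2 and 19.9 RPKM. Over the 5 doses from low to high they stood at 21.6 and 21.9, 30.8 and 30.8, 30.4 and 27.3, 33.0 and 31.8, and 31.2 and 33.0 RPKM. From 0.3 nM upwards, every treated library lay above both 0 nM libraries. Commd3 was called higher from 1 nM on by edgeR's quasi-likelihood test. Its log2 fold change was 0.73 at 1 nM (SE 0.14, Benjamini-Hochberg adjusted p = 0.0034 in edgeR) and 0.63 at 3 nM (SE 0.14, adjusted p = 0.0044 in edgeR). It was 0.80 at 10 nM (SE 0.14, adjusted p = 0.000119 in edgeR) and 0.79 at 100 nM (SE 0.14, adjusted p = 9.24e-05 in edgeR). At 0.3 nM the value was 0.23 (adjusted p = 0.775 in edgeR). At 100 nM it kept an adjusted p of 0.00491 or less in each of 21 alternative edgeR or DESeq2 fits.

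At 1 nM Commd3 was near its top level at 30.8 RPKM, whereas Bmi1 still climbed from 5.29 RPKM at 1 nM to 7.98 at 10 nM. Downstream, Pip4k2a, a phosphoinositide kinase gene on the other strand (18842256 to 18998121), lies 155627 bases beyond the end of Bmi1, with its 3′ end nearest. It stood at 1.83 and 1.64 RPKM at 0 nM and at 2.53 and 3.20 at 100 nM. This is a log2 fold change of 0.72 (SE 0.24, adjusted p = 0.0297 in edgeR). Over 21 alternatives the adjusted p of edgeR or DESeq2 ran from 0.0148 to 0.242, and the call was lost in 5: with DESeq2, without the filter on low values, and without either 0 nM library or without 100 nM replicate 2. The counting did not use strand, and whether Commd3 transcripts run on into Bmi1 was not tested. In the counts table no exon of a member overlaps another gene. In the GENCODE M21 annotation, exons of Cbx7 overlap Apobec3 and those of Kdm2b overlap Rnf34, both on the other strand. Exons of Kdm2b also overlap Gm44574, a processed transcript on the same strand. Pairs from these genes could thus be counted in part on the members.

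**Figure D3:**
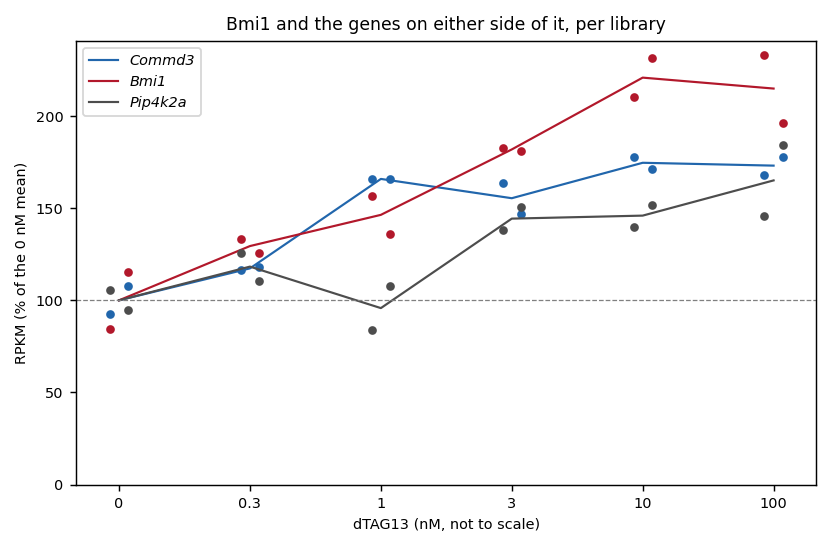
RPKM of Commd3, Bmi1 and Pip4k2a as a percentage of each gene's 0 nM mean (y axis, starting at 0) at each dTAG13 dose (x axis, nM, evenly spaced); points are single libraries, lines join the means of 2 and the dashed line marks 100%. At 100 nM the means are 173% for Commd3, 215% for Bmi1 and 165% for Pip4k2a, and Commd3 reaches 166% already at 1 nM.

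No other gene of the complex passed as Bmi1 did. Of 30 other PRC1 genes, 28 were tested and 0 were called at any of the 5 doses by edgeR's quasi-likelihood or likelihood ratio test or by DESeq2. At 100 nM 10 of them had an unadjusted p under 0.05 in the quasi-likelihood test, a threshold at which all tested genes were not counted. Without the fold-change minimum, 4 of the 28 were higher and 3 lower at 100 nM, with a median log2 fold change of 0.04, beside 10.1% and 13.3% of all tested genes, so the counts are near the background. The higher genes were Phc1, Pcgf3, L3mbtl2 and Max and the lower ones Wdr5, Hdac2 and Bcor, named after their values were seen. Phc1, the main PHC gene of canonical PRC1 here at 92.7% of the PHC sum, went from 88.9 and 86.0 RPKM at 0 nM to 110.6 and 113.4 at 100 nM. This is a log2 fold change of 0.36 (SE 0.053, adjusted p = 1.24e-05 in edgeR). Bcor, the corepressor that joins the PCGF1 complex, went from 7.42 and 8.22 RPKM to 5.27 and 6.20, a log2 fold change of -0.45 (SE 0.11, adjusted p = 0.00331 in edgeR). Wdr5, which PRC1 shares with other chromatin complexes, went from 65.0 and 62.3 RPKM to 46.4 and 41.3, the lowest value of these 28 at -0.54 (SE 0.071, adjusted p = 2.06e-06 in edgeR). Cbx8 and Scml2 were under 1 RPKM on average and were not called in a fit of the 23204 genes with at least 1 count.

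**Figure D4:**
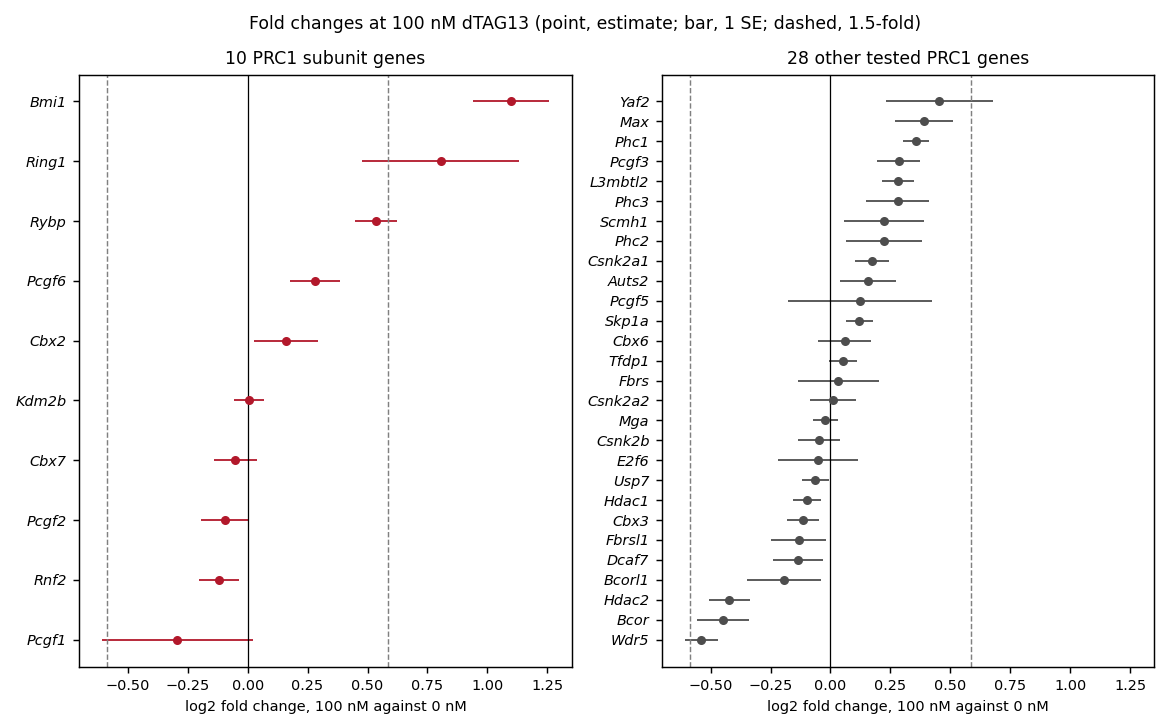
Log2 fold change of 100 nM against 0 nM dTAG13 (x axis) for the 10 PRC1 subunit genes (left) and the 28 other tested PRC1 genes (right), sorted by value; points are estimates, bars 1 standard error and dashed lines 1.5-fold. Bmi1 at 1.10 is farthest from 0 on the left, and the genes on the right lie between -0.54 and 0.45.

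Of the 8 genes that remove ubiquitin from H2AK119 or act with its removal, all were tested and 0 were called at any dose by either edgeR test or by DESeq2. At 100 nM 2 had an unadjusted p under 0.05, with no count of all tested genes at that threshold. Without the fold-change minimum 1 was higher at 100 nM (Usp21, a deubiquitinase) and 1 lower (Foxk2, a partner of BAP1), named after their values were seen, near the 10.1% and 13.3% of all tested genes. The median log2 fold change of these 8 was 0.08 at 100 nM, where Bmi1 stood at 1.10.

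Of 12 genes that PRC1 is known to repress, 9 averaged under 1 RPKM. The other 3 were tested (Cdkn2a, Cdkn2b and Olig2), and none of these 3 was called at 100 nM by either edgeR test or by DESeq2. There, 1 had an unadjusted p under 0.05, again with no count of all tested genes at that threshold. Cdkn2a, the classical BMI1 target, stood at 3.17 and 3.15 RPKM at 0 nM and at 3.21 and 4.03 at 100 nM (log2 fold change 0.19, SE 0.33, adjusted p = 0.728 in edgeR). Its neighbour Cdkn2b was called higher at 3 nM, with 22 and 17 counts beside 7 and 3 at 0 nM, and not at 100 nM, with 13 and 11. DESeq2 did not call it at 3 nM. Cdkn2b averaged 0.607 RPKM at 0 nM and 0.820 at 0.3 nM, so it passed the filter of 1 RPKM only through the doses where it was higher. Olig2, a neural transcription factor, was the most abundant of the 3, with 7.19 and 6.88 RPKM at 0 nM and 6.59 and 7.18 at 100 nM. Its 1 nM libraries stood at 9.32 and 11.2 RPKM, above both 0 nM libraries, and it was not called at any dose. Cdkn2a, Cdkn2b and Olig2 were picked out after their values were seen.

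In the fit of all genes with a count, Pax6, a neural transcription factor, was called higher at 3, 10 and 100 nM. At 3 nM Cdkn2b was called too, so that 2 of the 12 were called there, 1 at 10 nM and 1 at 100 nM, beside 0.896%, 2.03% and 4.13% of the genes in this fit. Pax6 had 1 and 2 counts at 0 nM, 10 and 8 with 3 nM, 10 and 16 with 10 nM, and 28 in each 100 nM library. From the summed counts the ratio of 100 to 0 nM was 18.4 with a 95% counting interval of 5.97 to 91.8 (adjusted p = 2.17e-08 in edgeR's fit of all genes). Even so, Pax6 was at 0.968 RPKM at 100 nM, below every member.

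Of the markers of other cells, the trophectoderm list had a higher sum at the doses where Bmi1 was higher. The 5 trophectoderm markers (Cdx2, Eomes, Elf5, Tfap2c and Krt7) summed to 12.2 to 14.9 RPKM at 0 nM and 22.3 to 22.4 at 100 nM. At 10 nM they summed to 19.6 to 20.8 RPKM. The highest single marker reached 9.98 RPKM at 0 nM and 11.8 at 100 nM, so 1 marker held much of each sum. Of the 3 tested, 2 were called higher at 100 nM (Cdx2 and Tfap2c), beside 4.37% of tested genes. The 5 of primitive endoderm (Gata4, Gata6, Sox17, Pdgfra and Dab2) summed to 1.19 to 1.27 RPKM at 0 nM, 0.892 to 1.16 at 10 nM and 1.91 to 2.23 at 100 nM. In the fit of all genes with a count, 1 of these 5 was called higher at 100 nM, beside 4.13% of the genes in it. The 6 of fibroblasts (Col1a1, Col1a2, Col3a1, Thy1, Pdgfrb and Postn) summed to 1.71 to 2.15 RPKM at 0 nM and 1.67 to 2.66 at 100 nM, which overlapped. None of the latter 11 reached 1 RPKM in a library at any dose, and no marker of the 3 lists was at 0 in both libraries of 0 or 100 nM. The part of such cells in the level of Bmi1 was not tested, and in bulk RNA more cells of a type and more RNA per cell cannot be told apart.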

How the data were processed

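RNA-seq libraries of total RNA (SMART-Seq Stranded kit) from 6 conditions, 2 each and 12 in all, were used. The authors deposited raw counts of read pairs per gene symbol, made per the labels and methods with Trim Galore, HISAT2 on mm10 and featureCounts 2.0.1, whose recorded command counts pairs with both ends aligned and names no strand or multi-mapping option. No normalization was applied to the deposited counts, and every library column was used. Conditions were taken from the labels. R 4.3.3 with edgeR 4.0.16 (limma 3.58.1, DESeq2 1.42.0 as an alternative) was used.

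RPKM was computed with TMM-scaled library sizes of the tested genes and the deposited exon lengths. Genes averaging 1 RPKM or more were tested (11378 of 24421). One fit held all conditions, the quasi-likelihood test set each dose against 0 nM, and p-values were adjusted over all tested genes by Benjamini-Hochberg. The likelihood ratio test that the study names served as an alternative. A second fit with the same library sizes held 23204 genes with at least 1 count. The biological coefficient of variation was 6.2%, and libraries of a condition differed beyond counting noise (chi-square per degree of freedom 1.96 to 15.6). Intervals of single ratios cover counting error only. The steps were tested on simulated counts of 100 nM against 0 nM. There, 81% of genes changed 2-fold and 98% of those changed 3-fold were called. Of 11177 unchanged genes, 5 were called. A gene not called can thus still have changed 2-fold.

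The members and gene lists were chosen with earlier results of these data known. Named genes were the 10 members, listed PRC1, H2AK119 and target genes called at 100 nM, the nearest gene of at least 10 mean counts on either side of Bmi1, and the 5 genes most like Bmi1. Others named were picked after their values were seen, apart from markers. Promoters came from RefSeq on GRCm38.p6, gene overlaps from GENCODE M21. Alternatives covered the test, the scaling, the filter, the libraries fitted, a replicate block and each library left out. Of the lists, 1 gene is not reported here.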

Additional observations from a re-analysis of the deposited data

How the results depend on the processing

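Bmi1 was called at 3, 10 and 100 nM and not at 0.3 or 1 nM under each alternative that gave a value (20 or 21 a dose). The members called at 100 nM were 2 instead of 1 with the likelihood ratio test, without a filter on low values, with the dose and 0 nM libraries only and with the 8 libraries of 0, 1, 10 and 100 nM, where Ring1 joined. Leaving out a library gave 1 or 2, with Ring1 joining without either 0.3 nM library and Rybp without 0 nM replicate 2. Genes called in all at 0.3 nM were 2, and 10 without a filter, and at 1 nM 104, and 51 with DESeq2's Wald test. Leaving out a library gave 1 to 2 at 0.3 nM and 34 to 114 at 1 nM, lowest without 1 nM replicate 2, and 59 without 1 nM replicate 1, 56 without 0 nM replicate 1 and 52 without 0 nM replicate 2. Other PRC1 genes past the adjusted p at 100 nM were 7, and 4 to 7 with a library left out, with 4 without 0 nM replicate 2 or 100 nM replicate 2. The log2 fold change of Bmi1 at 0.3 nM was 0.37, with 0.17 to 0.61 over left-out libraries (0 nM replicates 1 and 2), and at 1 nM 0.54, with 0.34 to 0.78. The Bmi1 share of PCGF counts without gene length was 7.17% at 0 nM and 12.98% at 100 nM, and leaving out a library gave 4.27% to 5.91% and 8.75% to 10.4%. The log2 fold change of Pcgf1 at 100 nM ran from -0.64 to 0.13 and that of Cbx2 from -0.03 to 0.33 with a library left out.

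Libraries with the same replicate number showed no shared deviation, as same-numbered deviations correlated between -0.0948 and 0.0927 over 15 pairs of conditions. Whether the numbers mark paired cultures cannot be told from this, because pairing need not leave a shared deviation. With the replicate block, Bmi1 at 100 nM was 1.10, 1 member was called there and 1254 genes in all, against 1274 without it. No call of a member changed with it. The cause of the differences between fits was not tested. Members counted with few pairs, Ring1 and Pcgf1, are limited by depth, and TMM takes most tested genes as unchanged, so a shift of all transcripts would not be seen.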
